A study of Mus musculus with 11 samples.

Results

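Interferon-induced genes were followed in the liver of db/db mice treated with an antibody against the glucagon receptor (GCGR). The set is a fixed list of 40 genes, of which 38 had a probe on the array, among 15970 genes that could be tested. A gene was matched when the RefSeq accession that a probe was designed on is a transcript of that gene, and 48 probes were found in this way. No probe matched the antiviral GTPases Mx1 and Mx2, which are named only. The genes were selected on the antibody and PBS log2 ratios of these same arrays, which had already been compared, so their differences are a description. Where a gene of the set is said to be called, the call is that of a fit over all genes and is not independent evidence.

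Liver RNA came from 2 groups of db/db mice, which become obese and diabetic because their leptin receptor is defective. The treated group had 6 samples, numbered 1 to 6, from mice given 5 mg/kg of the monoclonal antibody 3c7.v44. The control group had 5 samples, numbered 1, 3, 4, 5 and 6, from mice given phosphate-buffered saline (PBS). Both groups share the db/db genotype, and the time after dosing, the age and the sex of the mice are not given in the sources used here. Nothing in the labels says that each sample came from its own mouse, so errors and p-values cover only sample-to-sample spread, which may be technical.

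Each sample was hybridised to its own two-colour array, with liver labelled in the dye Cy5 and a commercial pool of mouse RNA, the reference, labelled in Cy3. Every value below is a log2 ratio of liver over that reference, and a difference is the mean of the anti-GCGR arrays minus the mean of the PBS arrays. The median Cy5 signal per array was 85 to 110 scanner units over a local background of 26 to 27, and 66.2% to 77.1% of gene spots were well above background. Precision is limited by how many arrays there are. The hepatocyte markers fitted the tissue label: all 10 were far above the reference in both groups, the lowest being Hnf4a at 4.44 in anti-GCGR liver and 4.47 in PBS liver, with Alb, the serum albumin gene, at 5.79 in anti-GCGR liver and 5.93 in PBS liver. The 11 arrays lay on 3 slides, each scanned in 1 run, and every slide held both groups. Within a slide, PBS samples took positions 1 and 2 and anti-GCGR samples positions 3 and 4, so that position and treatment cannot be told apart. Slide 2 held only 1 PBS array, number 5, at position 2.

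Interferons are secreted proteins that warn cells of infection. Type I and type III interferons act through receptors that activate the kinases JAK1 and TYK2, which phosphorylate STAT2. A complex that holds STAT2 and IRF9 then binds the interferon-stimulated response element (ISRE), while interferon gamma acts through the gamma-activated site (GAS). The genes switched on in this way include RNA sensors, nucleases, GTPases, ubiquitin-like modifiers and the machinery that loads peptides on MHC class I. In liver both hepatocytes and resident macrophages can express them.

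The control elements named above are shown first, as background to a set that is a fixed list of genes and is not defined by them. Sequences of the 250 bases before the annotated start were found for 29 of the 40 genes in a RefSeq table of the mouse assembly GRCm38.p6. The core of the ISRE, searched on both strands as GAAA, any 2 bases and GAAA again, occurred in 13 of these 29 genes (44.8%), against 936 of 27025 genes in the table (3.46%). The core of the GAS, searched as TTCNNNGAA, which reads the same on both strands, occurred in 6 of the 29 (20.7%), against 2197 of 27025 (8.13%). The letters of the ISRE core do not contain those of the GAS core, and overlapping copies of a motif were counted separately. Such a match is a description of letters and does not show that a factor binds there. The 5 sequences below belong to the genes with an ISRE core whose difference between the groups was largest in size. Capitals mark the ISRE core or its reverse complement, and each sequence is written from 5′ to 3′ in the direction of the gene.
Oas1a, chr5:120907526-120907775, minus strand: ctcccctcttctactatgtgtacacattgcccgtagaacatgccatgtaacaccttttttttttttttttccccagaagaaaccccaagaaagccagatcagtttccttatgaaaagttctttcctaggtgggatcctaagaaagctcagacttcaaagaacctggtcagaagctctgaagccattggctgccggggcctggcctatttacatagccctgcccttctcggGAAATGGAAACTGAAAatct
Gbp3, chr3:142559794-142560043, plus strand: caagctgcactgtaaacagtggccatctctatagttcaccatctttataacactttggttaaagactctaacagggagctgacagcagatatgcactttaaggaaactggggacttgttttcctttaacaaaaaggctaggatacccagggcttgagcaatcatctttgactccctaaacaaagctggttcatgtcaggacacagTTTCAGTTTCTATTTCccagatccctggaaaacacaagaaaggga
Igtp, chr11:58199306-58199555, plus strand: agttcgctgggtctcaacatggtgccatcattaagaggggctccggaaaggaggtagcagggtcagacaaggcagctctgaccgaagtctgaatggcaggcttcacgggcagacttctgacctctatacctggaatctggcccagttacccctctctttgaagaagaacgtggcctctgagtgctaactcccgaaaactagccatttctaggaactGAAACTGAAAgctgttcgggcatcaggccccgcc
Trim30a, chr7:104465194-104465443, minus strand: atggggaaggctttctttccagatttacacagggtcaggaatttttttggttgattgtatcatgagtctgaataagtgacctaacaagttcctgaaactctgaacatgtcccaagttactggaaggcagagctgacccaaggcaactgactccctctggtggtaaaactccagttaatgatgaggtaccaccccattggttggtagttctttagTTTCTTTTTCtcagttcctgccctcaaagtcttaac
Ifit1, chr19:34640639-34640888, plus strand: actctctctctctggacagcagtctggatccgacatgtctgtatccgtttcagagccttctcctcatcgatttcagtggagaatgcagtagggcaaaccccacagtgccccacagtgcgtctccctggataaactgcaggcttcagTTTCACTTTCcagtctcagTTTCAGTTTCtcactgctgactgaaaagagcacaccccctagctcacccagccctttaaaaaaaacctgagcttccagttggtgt
In Oas1a, 2 overlapping ISRE cores began 20 and 14 bases before the start. The 2 overlapping cores of Gbp3 began 45 and 39 bases before it, the single cores of Igtp and Trim30a 34 and 36 bases before it, and the 2 cores of Ifit1 104 and 85 bases before it. Gbp3 and Trim30a each had a second annotated start without an ISRE core before it, and both are counted as genes with the core. In the differences described below, the 13 genes with the core had a median difference of -0.02, with 1 gene past the threshold, and the 16 without it had a median of 0.02, with 3 past the threshold. The share past the threshold over all genes tested was 14.6%, and nothing is read from counts this small. The other 11 genes, Ifi27, Ifi27l2a, Ifi27l2b and Dhx58 among them, have no entry in the table.

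The set did not move as one in treated liver. Of the 38 measured genes, 22 had a higher and 16 a lower mean in anti-GCGR liver than in PBS liver, and the median difference was 0.02, against 0.01 over all 15970 genes. The quartiles of the set were -0.11 and 0.23, against -0.08 and 0.11 for all genes, and 27 of the 38 genes lay within 0.25 of no difference. At an adjusted p under 0.05 (limma, Benjamini-Hochberg over all genes), 7 genes were called higher (18.4% of the 38) and 0 were called lower. Of all genes tested, 14.6% were called, 8.98% higher and 5.66% lower. At an unadjusted p under 0.05 the count was 10 higher and 2 lower, against 17.6% of all genes higher and 12.8% lower. Because the set was chosen with this contrast known, nothing is read from these counts. The 7 genes were Ifi27l2b, Ifi27l2a, Lgals3bp, Oas1a, Dhx58, Ifi44 and Oasl2.

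The groups did not overlap for 6 of the 38 genes (15.8%), all of them higher, against 6.64% of all genes in either direction and 3.95% higher, and these were the 7 called genes without Ifi27l2a. A difference of at least 2-fold was found for 1 gene, Ifi27l2b, against 0.664% of all genes. With median centring of each array in place of loess, the split over the whole table was 581 higher and 2145 lower, against 1434 and 904, while the set had 6 genes higher and 1 lower. The median of the set was -0.10 with that scaling, against -0.06 over all genes, so its sign is not fixed. The sign of the difference was the same under all 22 alternative settings for 24 genes and turned in at least 1 of them for 14. Every one of the 38 genes was measured well above background in Cy5 on all 11 arrays by the probe that stands for it.

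**Figure D1:**
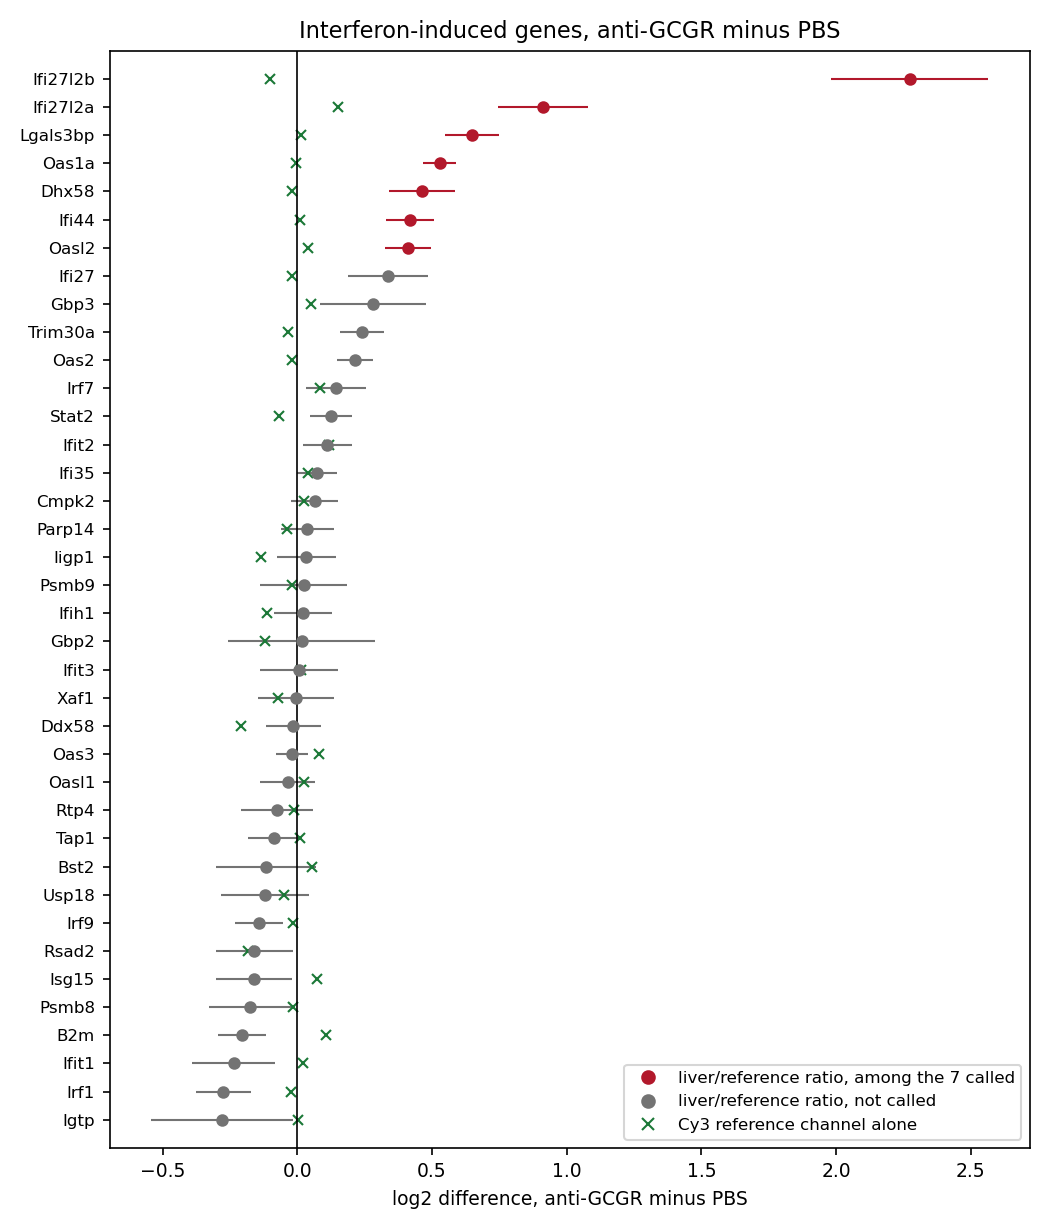
Difference of each of the 38 interferon-induced genes on the horizontal axis (log2, anti-GCGR minus PBS) by gene on the vertical axis, with the moderated standard error as bars. Ifi27l2b stands apart at 2.27, and 27 genes lie within 0.25 of no difference.

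The Ifi27 family encodes small hydrophobic membrane proteins of mitochondria and the nuclear envelope, and it held the largest differences of the set. Ifi27, Ifi27l2a and Ifi27l2b are neighbours on chromosome 12, and the annotations of Ifi27 and Ifi27l2a overlap, so transcripts of shared sequence could hybridise to more than 1 of these probes. All 3 had a higher mean in anti-GCGR liver.

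Ifi27l2b had 2 probes designed on the same transcript accession. Its brighter probe, which stands for the gene, had log2 ratios of 5.41, 5.84, 5.43, 6.11, 4.08 and 5.95 on anti-GCGR arrays 1 to 6, against 3.30, 3.18, 3.51, 2.91 and 3.08 on PBS arrays 1, 3, 4, 5 and 6. The lowest treated array, number 5, lay above the highest PBS array, so the groups did not overlap. The means were 5.47 ± 0.74 (SD, n = 6) in anti-GCGR liver and 3.20 ± 0.23 (SD, n = 5) in PBS liver, a difference of 2.27 ± 0.29 (moderated SE) or 4.83-fold. Among all 15970 genes this ranked 5 by size of increase. The liver channel carried the difference: mean log2 Cy5 was 11.46 in anti-GCGR liver and 9.29 in PBS liver, a difference of 2.17, while Cy3 differed by -0.10. Cy3 was well above background on only 1 of 11 arrays, so the ratio has a reference close to background. Within the slides the difference was 2.35, 2.05 and 2.56. The authors' deposited log2 ratios for this probe were 5.40, 5.84, 5.43, 6.11, 4.08 and 5.95 on the treated arrays and 3.30, 3.18, 3.51, 2.91 and 3.08 on the PBS arrays.

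The second Ifi27l2b probe gave a much smaller difference. It had log2 ratios of 0.11, 0.36, 0.40, 0.52, 0.17 and 0.25 on anti-GCGR arrays 1 to 6, against -0.03, 0.21, -0.09, -0.04 and 0.01 on the PBS arrays in the order above. PBS array 3 lay above anti-GCGR arrays 1 and 5, so the groups overlapped. The means were 0.30 ± 0.15 (SD, n = 6) in anti-GCGR liver and 0.01 ± 0.12 (SD, n = 5) in PBS liver, a difference of 0.29, or 1.22-fold. In the authors' deposited values, which lie close to those used here, the difference was also 0.29. It was 0.86 on the scanner software's log ratio, 0.59 with a background offset of 0 and 0.45 in Cy5 alone. With the mean of both probes in place of the brighter one, the difference of the gene was 1.28. Both probes were well above background in Cy5 on all 11 arrays, but the second one was dim. Its mean log2 Cy5 was 6.88 in anti-GCGR liver and 6.41 in PBS liver, against 11.46 and 9.29 for the brighter probe. On anti-GCGR array 5 this second probe was raised in both dyes, at 7.51 in Cy5 and 7.34 in Cy3. The other treated arrays read 6.55 to 6.87 in Cy5 and 6.26 to 6.48 in Cy3, so array 5 lifted the treated Cy5 mean. The lowest log2 Cy5 of any probe well above background was 5.69 to 6.10 per array. What sets the 2 probes apart was not tested.

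Ifi27l2a had log2 ratios of -2.48, -1.70, -1.75, -2.26, -2.04 and -1.65 on anti-GCGR arrays 1 to 6. On PBS arrays 1, 3, 4, 5 and 6 they were -3.09, -2.37, -2.94, -3.00 and -3.06. PBS arrays 1, 4, 5 and 6 lay below all treated ones and PBS array 3 lay above anti-GCGR array 1, so the groups overlapped by that pair. The difference was 0.91 ± 0.17 (moderated SE), or 1.88-fold, with means of -1.98 ± 0.34 (SD, n = 6) in anti-GCGR liver and -2.89 ± 0.30 (SD, n = 5) in PBS liver. Ifi27 had a smaller difference of 0.34, between -0.01 ± 0.35 (SD, n = 6) in anti-GCGR liver and -0.34 ± 0.16 (SD, n = 5) in PBS liver. Its values were -0.37, 0.30, 0.03, -0.48, 0.08 and 0.38 on the treated arrays, against -0.54, -0.11, -0.38, -0.43 and -0.26 on the PBS arrays, and the groups overlapped.

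**Figure D2:**
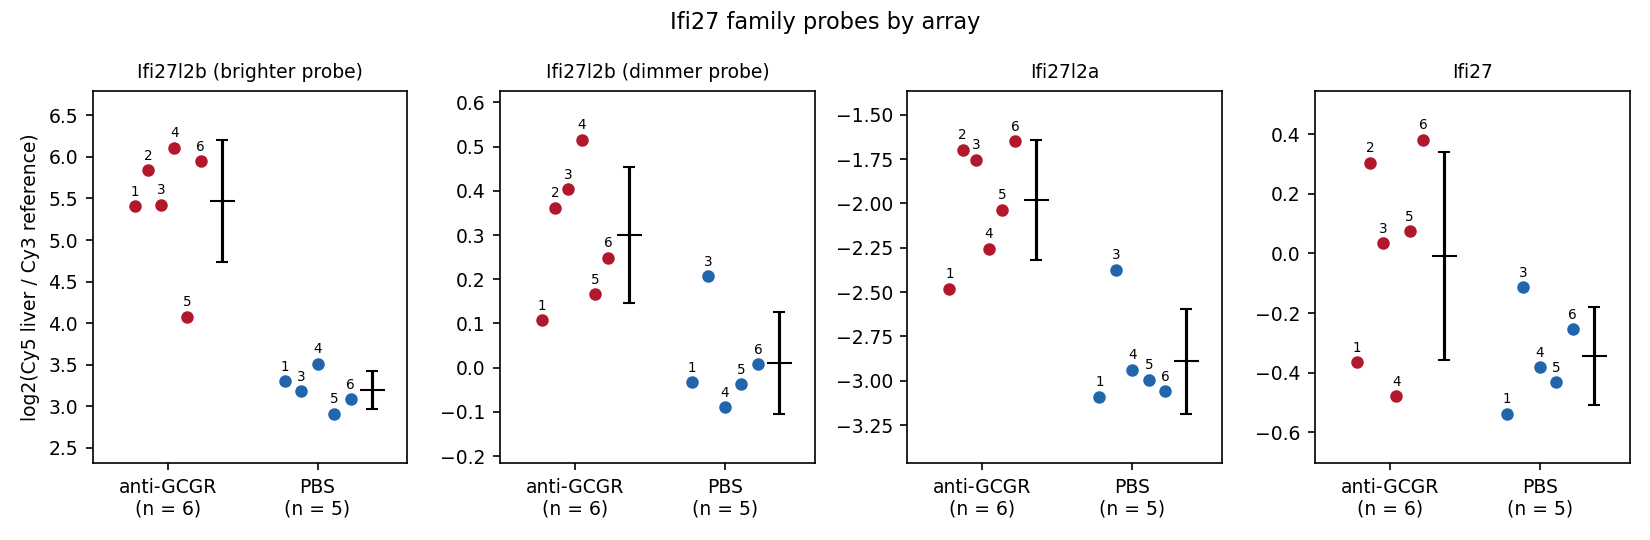
Log2 ratio of liver over reference (vertical axis) on each array for the 4 probes of the Ifi27 family, with anti-GCGR arrays (n = 6) left of PBS arrays (n = 5) and bars for the mean and SD. The brighter Ifi27l2b probe separates the groups by 2.27 and the second probe of the same gene by 0.29.

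The transcription factors that carry the interferon signal lay on both sides of 0, with a median of -0.01 over 4 genes, whose sign turned without PBS array 5 or 6 or anti-GCGR array 4. Stat2, a part of the complex that binds the ISRE, averaged 0.96 ± 0.07 (SD, n = 6) in anti-GCGR liver and 0.84 ± 0.19 (SD, n = 5) in PBS liver. Irf9, the DNA-binding part of the same complex, had a difference of -0.14, and Irf7, which amplifies type I interferon production, one of 0.14. Irf1, which is induced by interferon gamma and binds elements like the ISRE, had the lowest difference of the 4, at -0.27 ± 0.10 (moderated SE). Its log2 ratios were -0.21, 0.19, 0.01, -0.18, 0.32 and -0.05 on anti-GCGR arrays 1 to 6, against 0.12, 0.23, 0.24, 0.29 and 0.55 on PBS arrays 1, 3, 4, 5 and 6. Anti-GCGR arrays 2 and 5 lay among the PBS values. Irf1 was not called on all 11 arrays but was called lower without anti-GCGR array 5 (-0.33), with slide as a block (-0.30), with median centring (-0.36) and in Cy5 alone (-0.27).

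Of the sensors of viral RNA, Dhx58 was called higher and the other two did not pass. Dhx58 encodes LGP2, which tunes the signal of those other two. Its log2 ratios were 0.80, 1.33, 1.40, 0.93, 0.93 and 1.09 on anti-GCGR arrays 1 to 6, against 0.25, 0.77, 0.57, 0.76 and 0.73 on the PBS arrays in the same order as before. The groups did not overlap, although anti-GCGR array 1 lay just above the highest PBS array, and the difference was 0.46 ± 0.12 (moderated SE). The call was lost without PBS array 1 (0.37), PBS array 4 (0.45), anti-GCGR array 2 (0.41) or anti-GCGR array 3 (0.40), and also on the scanner software's log ratio (0.43), with median centring (0.35) and in Cy5 alone (0.42). Ddx58, which encodes RIG-I, had a difference of -0.01, and Ifih1, which encodes MDA5, one of 0.02. On their second probes the differences were -0.06 for Ddx58 and -0.09 for Ifih1.

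Isg15, a ubiquitin-like protein that is joined to other proteins, had a lower mean in treated liver on both of its probes, at -0.16 and -0.11. The brighter probe read -1.70, -1.46, -1.31, -1.68, -0.89 and -1.31 on anti-GCGR arrays 1 to 6, against -1.58, -1.18, -1.26, -1.16 and -0.98 on the PBS arrays. The groups overlapped, with anti-GCGR array 5 above all PBS arrays. Usp18, the protease that removes ISG15 and dampens receptor signalling, had a difference of -0.12. The IFIT proteins, which bind viral RNA, had differences of -0.24 for Ifit1, 0.11 for Ifit2 and 0.01 for Ifit3, and none of these passed the threshold. Ifit1 read -1.18, -1.36, -0.94, -1.40, -0.56 and -0.80 on the anti-GCGR arrays, against -1.22, -0.76, -0.76, -0.61 and -0.67 on the PBS arrays. PBS array 1 lay among the low treated arrays and apart from the other PBS arrays.

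OAS enzymes make short oligoadenylates that activate RNase L. With the OAS-like genes, they formed the group outside the Ifi27 family with the highest median difference, 0.21 over 5 genes (0.09 with median centring). Oas1a had log2 ratios of -2.32, -2.43, -2.41, -2.50, -2.28 and -2.32 on anti-GCGR arrays 1 to 6. On PBS arrays 1, 3, 4, 5 and 6 they were -3.08, -2.79, -2.92, -2.84 and -2.89. All treated arrays lay above all PBS arrays, with a difference of 0.53 ± 0.06 (moderated SE) or 1.44-fold. The second Oas1a probe had a smaller difference of 0.22, at -1.24 ± 0.08 (SD, n = 6) in anti-GCGR liver and -1.46 ± 0.09 (SD, n = 5) in PBS liver, and there the groups overlapped.

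Oasl2, an OAS-like protein, had log2 ratios of -1.53, -1.77, -1.49, -1.62, -1.60 and -1.33 on anti-GCGR arrays 1 to 6, against -2.14, -1.77, -2.06, -2.03 and -1.83 on the PBS arrays. The groups touched at anti-GCGR array 2, -1.769, and PBS array 3, -1.771, and the difference was 0.41 ± 0.09 (moderated SE). Oas2 averaged -1.59 ± 0.14 (SD, n = 6) in anti-GCGR liver and -1.81 ± 0.06 (SD, n = 5) in PBS liver. It was not called on all 11 arrays, and was called higher in 4 of the 22 alternative settings. Oas3 and Oasl1 had differences of -0.02 and -0.04.

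Among other antiviral effectors, Lgals3bp and Ifi44 had the largest differences of 10 genes, whose median was 0.05 (-0.07 with median centring, -0.01 on the scanner software's log ratio and -0.003 without PBS array 1). Lgals3bp, a secreted glycoprotein that binds galectins, had log2 ratios of 1.46, 1.53, 1.59, 1.53, 1.05 and 1.73 on anti-GCGR arrays 1 to 6, against 0.69, 0.92, 0.83, 0.84 and 0.89 on PBS arrays 1, 3, 4, 5 and 6. The groups did not overlap, and the difference was 0.65 ± 0.10 (moderated SE) or 1.57-fold. The second Lgals3bp probe also kept the groups apart, at 1.23 ± 0.19 (SD, n = 6) in anti-GCGR liver and 0.73 ± 0.09 (SD, n = 5) in PBS liver, a difference of 0.50.

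Ifi44, a cytoplasmic protein that rises with interferon, read -3.05, -3.26, -3.23, -3.24, -3.05 and -2.78 on anti-GCGR arrays 1 to 6, against -3.68, -3.50, -3.58, -3.48 and -3.36 on the PBS arrays. The groups did not overlap, and the difference was 0.42 ± 0.09 (moderated SE). It was 0.76 on the scanner software's log ratio and 0.69 with a background offset of 0. Trim30a, a mouse TRIM protein that restrains inflammatory signalling, averaged -0.23 ± 0.11 (SD, n = 6) in anti-GCGR liver and -0.47 ± 0.17 (SD, n = 5) in PBS liver, and it was not called. The other 7 effectors had differences of -0.16 to 0.07. They are Rsad2 (viperin, -0.16), Bst2 (tetherin, which holds budding viruses at the membrane, -0.12), Rtp4 (a receptor transporter, -0.07), Xaf1 (a promoter of cell death, -0.01), Parp14 (an ADP-ribosyltransferase, 0.04), Cmpk2 (a mitochondrial nucleotide kinase, 0.06) and Ifi35 (0.07). The sign of Bst2, Xaf1, Parp14, Cmpk2 and Ifi35 turned in at least 1 alternative setting. A second probe gave 0.04 for Cmpk2 and -0.18 for Xaf1. The 2 Xaf1 probes lay far apart in level, with anti-GCGR means of 3.25 on the first and -2.18 on the second.

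**Figure D3:**
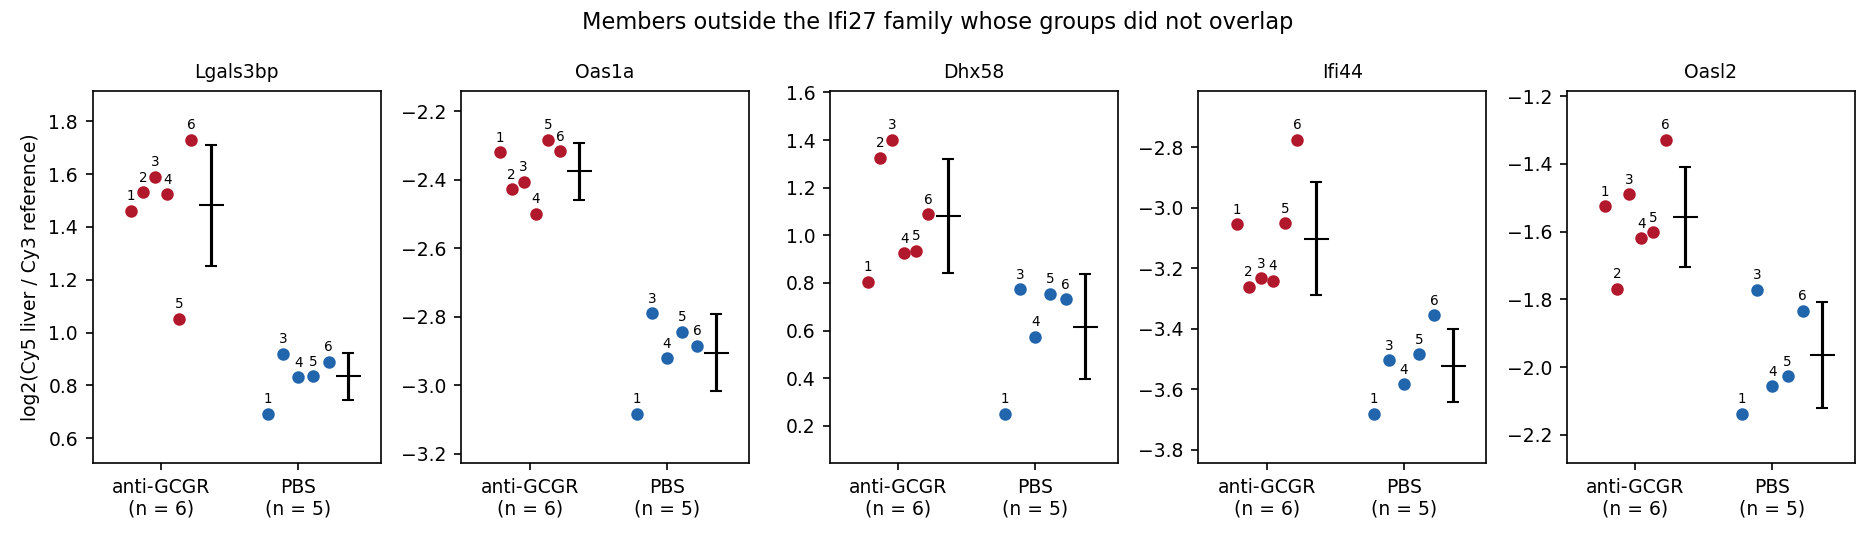
Log2 ratio of liver over reference (vertical axis) on each array for genes outside the Ifi27 family whose groups did not overlap, with anti-GCGR arrays (n = 6) left of PBS arrays (n = 5) and bars for the mean and SD. Lgals3bp shows a gap of 0.65 between the means, and Oasl2 has its lowest treated array at -1.769 beside its highest PBS array at -1.771.

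The interferon-inducible GTPases Igtp, Iigp1, Gbp2 and Gbp3 attack the vacuoles of intracellular microbes, mostly downstream of interferon gamma, and none of the 4 passed the threshold. Igtp had log2 ratios of 1.78, 1.51, 1.76, 1.76, 1.98 and 2.36 on anti-GCGR arrays 1 to 6, against 1.44, 1.72, 1.90, 2.42 and 3.21 on PBS arrays 1, 3, 4, 5 and 6. The PBS arrays spanned both ends of the range, and the means were 1.86 ± 0.29 (SD, n = 6) in anti-GCGR liver and 2.14 ± 0.70 (SD, n = 5) in PBS liver. Gbp2 read -0.38, -0.63, -0.78, -0.40, -0.60 and 0.08 on the anti-GCGR arrays, against -1.18, -0.93, -0.69, -0.20 and 0.66 on the PBS arrays. Gbp3 read 0.91, 0.98, 0.85, 1.02, 1.0 and 1.27 on the anti-GCGR arrays, against 0.04, 0.49, 0.55, 1.08 and 1.46 on the PBS arrays. In all 3 genes PBS array 1 was the lowest and PBS array 6 the highest of the 11. Iigp1 differed by 0.03 on the probe that stands for it, and by 0.19 on a second probe.

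Genes of antigen processing and MHC class I had a median difference of -0.13 over 4 genes. This median was -0.04 without PBS array 6, -0.08 without anti-GCGR array 1, -0.07 in Cy5 alone and -0.21 with median centring. B2m, the light chain of MHC class I, had log2 ratios of 0.88, 1.08, 1.08, 0.76, 1.33 and 1.12 on anti-GCGR arrays 1 to 6, against 1.33, 1.20, 1.37, 1.16 and 1.17 on the PBS arrays. Anti-GCGR array 5 lay among the PBS arrays and the other 5 treated arrays below them, with a difference of -0.21 ± 0.09 (moderated SE). B2m was called lower only without that array, at -0.26. Psmb8 and Psmb9, catalytic subunits of the immunoproteasome, had differences of -0.18 and 0.02, and Tap1, a peptide transporter, one of -0.09.

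The set varied more within a group than the median gene, and many of its genes were low or high on the same arrays. The median SD of a gene over the anti-GCGR arrays was 0.20, against 0.12 for all genes, and over the PBS arrays 0.20, against 0.10. PBS array 1 was the lowest of the 5 PBS arrays for 28 of 38 genes (73.7%), while it was so for 18.4% of all genes. PBS array 6 was the highest for 18 genes (47.4%, against 23.0% of all genes). Among treated arrays, anti-GCGR array 1 was the lowest for 14 genes (36.8%, against 15.5% of all genes) and array 4 for 11 (28.9%, against 15.7%). Array 5 was the highest for 16 (42.1%, against 23.6%) and array 6 for 13 (34.2%, against 15.4%). Over all genes array 5 was also often the lowest, for 25.9%, and in the set it was so for 3 genes. The median deviation of the set from its group mean was -0.15, -0.15, 0.12 and 0.17 on anti-GCGR arrays 1, 4, 5 and 6, against -0.19 on PBS array 1 and 0.15 on PBS array 6. Over all genes no array had a median deviation beyond 0.02 in size. Without PBS array 1 the median difference of the set was -0.05, and without PBS array 6 it was 0.10. The low arrays anti-GCGR 1, anti-GCGR 4 and PBS 1 shared slide 1, which also held PBS array 4. These 3 arrays also had the lowest median Cy5 signals, 85.5, 85 and 85 scanner units in that order, while PBS array 4 had 96. The part of signal level in the shared variation was not tested.

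**Figure D4:**
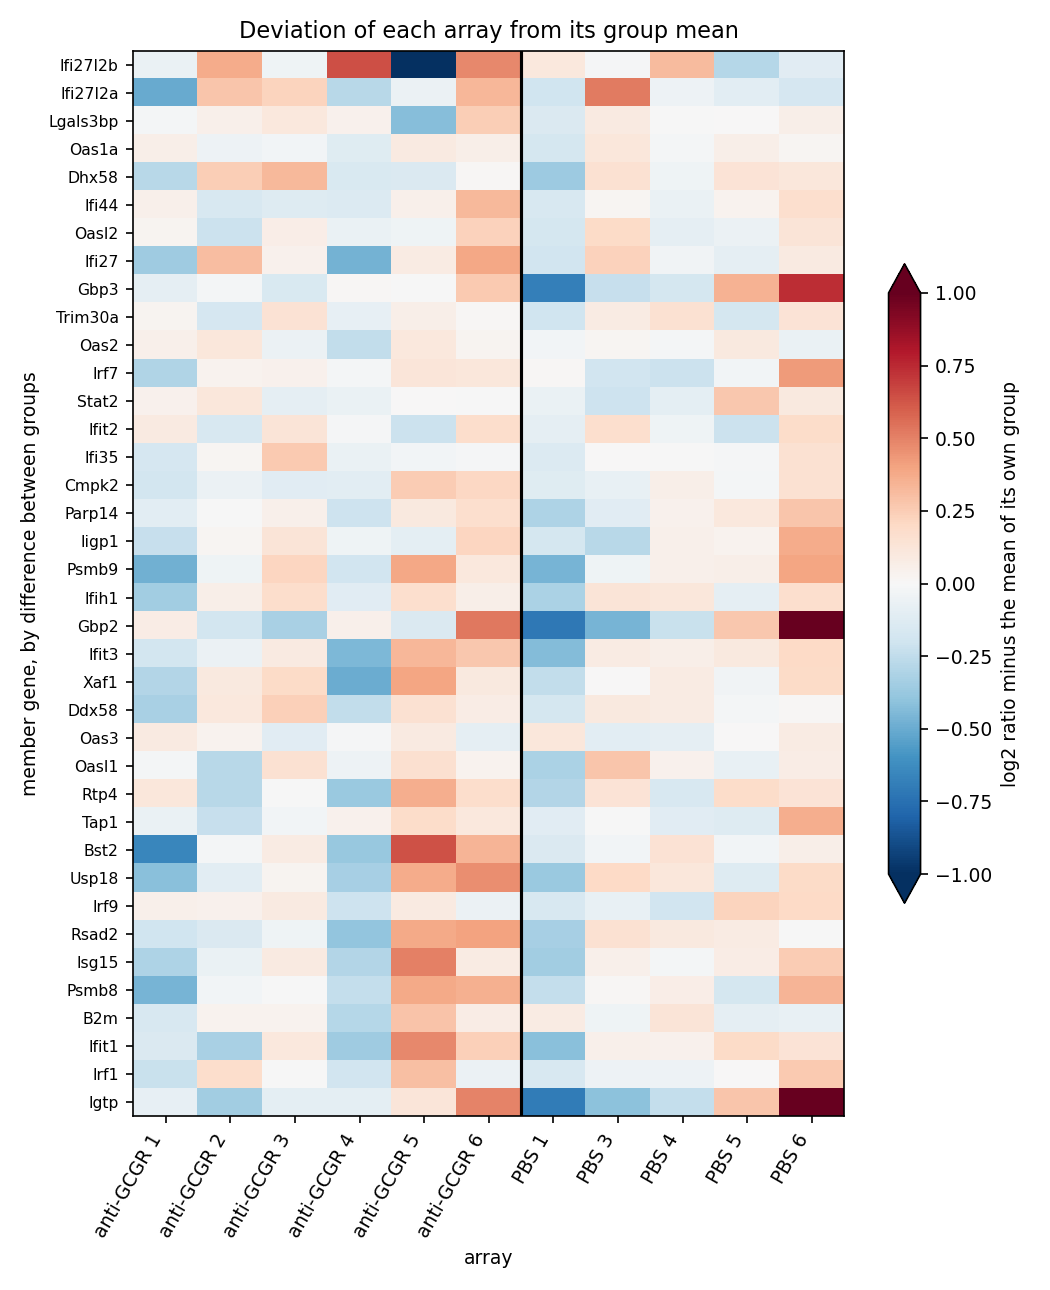
Deviation of each array (horizontal axis) from the mean of its own group in log2 units (colour), for the 38 interferon-induced genes (vertical axis, ordered by the difference between groups). The column of PBS array 1 is mostly low, with a median of -0.19, and that of PBS array 6 mostly high, with a median of 0.15.

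The slide was tested in a fit over the whole table with treatment in the model, an alternative added after the data were seen. It was called for 1 of the 38 genes (2.63%), Ifit2, with an adjusted p of 0.0404 in limma, against 0.614% of all genes. Ifit2 deviated from its group mean by -0.02 on slide 1, -0.20 on slide 2 and 0.16 on slide 3 on average. All genes of the set but Ifi27l2b (0.25) and Oas3 (0.03) averaged below their group mean on slide 1, down to -0.28 for Igtp. The median difference of the set was 0.02 within slide 1, 0.14 within slide 2 and 0.07 within slide 3, against 0.01, 0.02 and 0.01 for all genes. Differences within slide 2 rest on 1 PBS array, number 5. On all 3 slides 13 of the genes were higher in anti-GCGR liver and 5 were lower, and no count over all genes is given beside these. With slide as a block, 10 genes were called higher and 1, Irf1, lower, while 10.9% of all genes were called higher and 6.58% lower in that fit. The part of slide in the shared variation was otherwise not tested.

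The rest of the interferon pathway was followed in 4 lists of 115 other genes, of which 100 could be tested. There 9 genes rose and 4 fell (13.0%, against 14.6% of all genes), with a median difference of -0.01. With median centring the split was 3 higher and 13 lower. It was 4 and 2 without PBS array 1, 6 and 3 without anti-GCGR array 6 or PBS array 4, 5 and 3 without anti-GCGR array 4, 8 and 2 without anti-GCGR array 3 or PBS array 6, and 16 and 13 without anti-GCGR array 5. Of 12 genes for interferons and their receptors, 2 rose: Il10rb, a receptor chain shared by interleukin 10 and the type III interferons (0.28 ± 0.08), and Ifngr1, the binding chain of the interferon gamma receptor (0.19 ± 0.05). These errors and those that follow in this account of the pathway are moderated SEs. None of these 12 fell, also at an unadjusted p under 0.05, where 5 were higher and 0 lower. Over all genes, 17.6% were higher and 12.8% lower at that threshold.

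Of 16 genes of the JAK-STAT signal and its inhibitors, 1 rose, Cish, an inhibitor induced through STAT5. It averaged 1.78 ± 0.67 (SD, n = 6) in anti-GCGR liver and 0.59 ± 0.61 (SD, n = 5) in PBS liver, a difference of 1.18 with an adjusted p of 0.0311 in limma. At an unadjusted p under 0.05, 2 of the 16 were higher and 1 lower. Of 19 genes of nucleic acid sensing, 1 rose, the kinase gene Ikbke (0.38 ± 0.11), and 1 fell, the ubiquitin ligase gene Traf6 (-0.27 ± 0.07). Here 4 of the 19 were higher and 4 lower at an unadjusted p under 0.05. Leaving out 1 array ended the call in 6 of 11 fits for Il10rb and Ifngr1, 5 for Cish, 8 for Ikbke and 3 for Traf6. Under the 11 other settings it was lost in 3 for Il10rb, 4 for Ifngr1 and Ikbke, 2 for Cish and 1 for Traf6, with smallest differences of 0.17 for Il10rb and 0.08 for Ifngr1. In Cy5 alone it was lost for all 5 of these genes, with values of 0.19, 0.14, 1.0 and 0.30 for the 4 rises and -0.20 for Traf6.

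Of 56 other interferon-induced genes, 5 rose, 3 fell and 48 did not pass. With an unadjusted p under 0.05 as the threshold, 11 were higher and 9 lower. The largest rise was that of Ifi211, a member of the nucleic acid-binding PYHIN family, at 0.51 ± 0.14 (SD, n = 6) in anti-GCGR liver and -0.17 ± 0.22 (SD, n = 5) in PBS liver. Ifi30, a lysosomal thiol reductase that helps to present antigens, rose by 0.37 ± 0.08, and Ifi204, another PYHIN gene, by 0.32 ± 0.06. Sp110, which encodes a nuclear body protein, fell to 1.88 ± 0.30 (SD, n = 6) in anti-GCGR liver, against 2.55 ± 0.10 (SD, n = 5) in PBS liver. Slfn9, a schlafen gene, fell to 0.98 ± 0.19 (SD, n = 6) in anti-GCGR liver, against 1.49 ± 0.10 (SD, n = 5) in PBS liver. The groups did not overlap for Ifi211, Ifi204, Sp110 and Slfn9, and these 4 and Ifi30 kept their call without each array in turn. Under the 11 other settings Sp110 lost its call with the mean over its probes (-0.13), and Ifi30 lost its call with median centring (0.24) and in Cy5 alone (0.18). Apol9b also fell, by 0.62 on the log2 scale, but lost its call in 10 of 11 such fits and in 5 of the other settings.

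Markers of the cells that could carry interferon-induced transcripts were read in 9 lists. Of 67 markers tested, 10 rose and 2 fell (17.9%, against 14.6% of all genes), and the others did not pass. Of 11 markers of Kupffer cells and macrophages, 2 rose: C1qb, a complement subunit (0.45 ± 0.09, moderated SE), and Clec4f, a Kupffer cell lectin (0.23 ± 0.07, moderated SE). The median difference of the 11 was 0.19. Set against the PBS mean of each gene, the average of this list ran from -0.07 to 0.39 over the anti-GCGR arrays, against -0.13 to 0.29 over the PBS arrays, so the groups overlapped. Of 6 markers of monocytes and neutrophils, Ccr2 rose by 0.48 and Csf3r fell by 0.26. Of 8 dendritic cell markers, Itgax (0.59) and Tcf4 (0.16) rose, and Siglech, which marks plasmacytoid dendritic cells, fell by 0.32. The averages ran from -0.15 to 0.53 on anti-GCGR arrays and -0.47 to 0.73 on PBS arrays for the monocyte and neutrophil list, and from 0.02 to 0.15 on anti-GCGR arrays and -0.08 to 0.06 on PBS arrays for the dendritic cell list.

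Cd4 rose by 0.57 as the only one of 7 markers of T and NK cells to pass. Of 7 markers each, 2 rose for sinusoidal endothelial cells (Stab1 0.32 and Stab2 0.28) and 2 for hepatic stellate cells (Lrat 0.61 and Pdgfrb 0.37). The averages ran from 0.01 to 0.43 on anti-GCGR arrays and -0.10 to 0.07 on PBS arrays for the sinusoidal list, from -0.003 to 0.35 on anti-GCGR arrays and -0.14 to 0.12 on PBS arrays for the stellate list, and from -0.01 to 0.20 on anti-GCGR arrays and -0.10 to 0.19 on PBS arrays for the T and NK list. No marker passed among 5 of B cells, 6 of cholangiocytes and 10 of hepatocytes, where the markers with the smallest p had log2 differences of 0.05 (Pax5), 0.13 (Spp1) and 0.33 (Apoa1), with adjusted p-values in limma of 0.629, 0.0987 and 0.0744 in that order. At an unadjusted p under 0.05, 0 markers of B cells, 1 of cholangiocytes and 3 of hepatocytes, 1 higher and 2 lower, were called. At that threshold 5 markers of macrophages, 5 of sinusoidal cells and 4 of stellate cells were higher and 0 lower. The split was 3 and 1 for dendritic cells, 1 and 1 for monocytes and neutrophils, and 1 and 0 for T and NK cells. Over all genes, 17.6% were higher and 12.8% lower. By mean, 11 of 11 macrophage, 7 of 7 sinusoidal, 6 of 7 stellate and 4 of 10 hepatocyte markers were higher. So were 5 of 6 monocyte and neutrophil, 4 of 8 dendritic cell and 4 of 7 T and NK cell markers. The count was 4 of 5 for B cells and 4 of 6 for cholangiocytes. No share over all genes is given beside these counts by mean, and nothing is read from them. In bulk liver, more cells of a type and more RNA per cell cannot be told apart, and the part of these markers in the differences of the interferon-induced genes was not tested. Leaving out 1 array ended the call in 7 of 11 fits for Clec4f and Stab2, 9 for Tcf4, 6 for Csf3r and Pdgfrb, 3 for Siglech, Cd4 and Lrat and 1 for Itgax, while C1qb, Ccr2 and Stab1 kept theirs. Under the 11 other settings the call was kept throughout by Ccr2 and Itgax. It was lost in 6 settings for Tcf4 (smallest difference 0.04), 5 for Clec4f (0.09), and 3 each for Stab2 (0.13), Pdgfrb (0.26) and Cd4 (0.51). It was lost in 2 settings each for C1qb (0.27), Stab1 (0.20), Lrat (0.42), Csf3r (-0.23) and Siglech (-0.13). With the mean over its probes Cd4 differed by 0.28.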

How the data were processed

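Per the labels, liver samples were labelled with Cy5 and a pool of mouse reference RNA with Cy3 on two-colour Agilent arrays, without a dye swap. The deposited scanner files came from Agilent Feature Extraction (11 in the submitters' processing notes, 11.5.1.1 in the headers). They hold, per the file headers, median spot and background intensity for both dyes on an unlogged scale, flags of 0 or 1 (score) for spot quality, and the log10 ratio of processed Cy5 over Cy3. The authors also deposited a table of log2 values per probe, made in a way not given in the sources used here. By comparison with the scanner files it ran as Cy5 over Cy3 without centring per gene, and differed from the values used here by at most 0.0521 over probes of the interferon-induced genes.

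With limma 3.58.1 in R 4.3.3, normexp with offset 50 corrected the background and loess, in which control spots had weight 0, normalized each array. Median signals were used because the files hold medians where mean signals had been assumed. Uneven spots were dropped, repeated spots of a probe were averaged, and none was saturated. Probes were named by unversioned RefSeq accession through assembly GRCm38.p6: 26581 of 39429 probes matched 20144 genes and 12848 matched none. The mm9 build in the headers is that of the array design. Symbols Mnda, Tf, Mb21d1 and Tmem173 were read as Ifi211, Trf, Cgas and Sting1. Kept probes were those well above Cy5 background on 5 or more of 11 arrays, and the brightest one stood for its gene, leaving 15970 genes, 3985 of them with several kept probes. A second Irf1 probe was not kept.

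Two-sided tests of the log2 ratios used lmFit and eBayes, and genes with a Benjamini-Hochberg adjusted p under 0.05 over all genes tested were called. The scripts were tested on simulated data. The interferon-induced genes, the other lists, the cell markers and the rule for naming genes were chosen with earlier results of these data known. All genes of the set are named. Values per array are given for the 6 largest differences, for genes whose groups do not overlap, for the Ifi27 family, and for Irf1, Isg15, Ifit1, Igtp, Gbp2, Gbp3 and B2m, which were added after their values were seen. Of each other list the 3 largest rises and falls past the threshold are named, or else the gene with the smallest p, and Hnf4a and Alb were picked once their values were known. The result of 1 further gene is not reported here. Alternatives covered slide and replicate blocks, the deposited log2 table, the scanner ratio, scaling, background, filter, probe choice and each array left out.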

Additional observations from a re-analysis of the deposited data

Results flagged for a closer look

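Single arrays stood apart from the others of their group for 11 of 130 groups of values examined, by the gap to the nearest array as a share of the group's range, where chance gives about 1 in 20. Among the interferon-induced genes, Ifi27l2b on anti-GCGR array 5 (log2 ratio 4.078) and Irf7 on anti-GCGR array 1 (-0.5543) were the low ones of the treated group. In the PBS group, array 1 was low for Ifit1 (-1.223) and Ifit3 (0.5818), array 3 was high for Ifi27l2a (-2.373), and array 6 was high for Tap1 (0.2474). Among the other genes named, anti-GCGR array 5 was low for Stab1 (3.007) and Apoa1 (5.105) and anti-GCGR array 6 was high for Pdgfrb (-0.8052), while PBS array 4 was high for Slfn9 (1.67) and PBS array 6 for C1qb (2.665).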

How the results depend on the processing

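The 6 genes Ifi27l2b, Ifi27l2a, Lgals3bp, Oas1a, Ifi44 and Oasl2 kept their call in all 22 alternatives, and Dhx58 lost it in 7. Some alternatives change little for the set. The deposited table holds nearly the same values, and the changes of filter left the median of the set at 0.0221. The count of set genes called lower was 1 with slide as a block, with median centring or in Cy5 alone, and 0 to 2 without 1 array. The second Ifi27l2b probe gave 0.862 on the scanner ratio, 0.4533 in Cy5 alone and 0.5909 with offset 0. Over the whole table, calls higher were 581 with median centring and 782 to 2294 without 1 array, and calls lower 2145 and 458 to 1574. The split was 714 higher and 335 lower with the replicate block over the 5 numbers both groups share. Other pathway genes called higher were 5 on the scanner ratio, 3 with median centring and 4 to 16 without 1 array. Those called lower were 7 with slide as a block, 13 with median centring, 8 in Cy5 alone, 2 with the mean over probes and 2 to 13 without 1 array. The sign turned for Pax5 in Cy5 alone (-0.03256) and for Apoa1 on the scanner ratio (-0.07764). The cause of these shifts was not tested. The arrays gave little sign that the replicate numbers pair the samples. Deviations of same-numbered arrays correlated at 0.125, 0.0267, -0.0131, -0.125 and 0.141, and 1 of 5 correlated best with its own number. Low correlations do not show that there was no pairing. The block kept all 7 calls in the set, with a median of 0.03. Cy3 signal close to background limits the ratio of the brighter Ifi27l2b probe.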
